A study of Homo sapiens with 6 samples.

Results

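The genes analysed here encode enzymes that add methyl groups to histone lysines (writers) or take them off (erasers). They were chosen with earlier results of these data known, by a rule on the symbol. The rule took protein-coding genes of the GRCh37 annotation whose names begin with KDM, KMT, SETD, NSD, EHMT, EZH or SUV39H. This gave 50 of 19820 protein-coding genes, with 28 writers and 20 erasers. The symbol rule also took NSDHL, a dehydrogenase of cholesterol synthesis, and EZHIP, an inhibitor of the enzyme EZH2, and both were kept apart from writers and erasers. The split into writers and erasers follows the symbol as well, so that SETD3, known as an actin histidine methyltransferase, stands among the writers.

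CELF1 (also named CUGBP1), an RNA-binding protein that affects splicing, translation and decay of mRNAs, was precipitated with an antibody after formaldehyde fixation of the cells, and the recovered RNA (IP) was sequenced together with RNA from the unprecipitated lysate (input). The cells were 2 established human melanoma lines, NRAS-mutated SK-Mel-103 and BRAF-mutated UACC-62. The labels name no transgene, knockdown or drug, so that the groups differ in the cell line and in the antibody step. IP lists were used for UACC-62 replicates 1 and 3 and for a single SK-Mel-103 sample (replicate 1), each with its own input. The labels number the UACC-62 samples as replicates without naming separate cultures, and their SD (n = 2) may therefore be technical.

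The lists held 780750 to 862731 bins of 20 bp per sample, with 10958459 to 14436573 reads from the IP and 8453517 to 10161917 from the input. Only bins that the authors' peak caller had passed were listed, and a gene without bins is therefore not necessarily a gene without reads. Of the melanocyte markers, MITF had 2.74 input reads per kb of exon in SK-Mel-103 against 920 and 762 in the UACC-62 replicates. TYR, DCT and S100B had no listed bin in SK-Mel-103, SOX10 had input reads in all 3 samples, and PMEL had no bin in the lists used here. MLANA had 18 input reads in SK-Mel-103 against 826 and 926 in the UACC-62 replicates. Apart from PMEL, the melanocyte markers were thus seen in UACC-62, whereas in SK-Mel-103 most of them were low or not listed.

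Histone lysine methylation is written mostly by SET-domain enzymes, with S-adenosylmethionine as methyl donor, and erased by the flavin-dependent KDM1 enzymes or by the JmjC-domain dioxygenases. The position of the lysine sets its usual context, with H3K4 methylation at promoters and enhancers of active genes, H3K36 methylation over transcribed bodies, and H3K9 and H3K27 methylation in silenced chromatin. In melanoma these enzymes are known from EZH2, which is recurrently mutated, from SETDB1, which is amplified in part of the tumours, and from KDM5B, which marks a slow-cycling state.

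A peak was a 20-bp exon bin with more than 30 IP reads, and a common peak was the same bin passing in all 3 samples. Common peaks were found in the mRNAs of 2 of the 50 genes, the eraser KDM5A and the writer SETD7, all of them in 3′ UTRs. Windows of 3 common peaks of each gene are shown on the transcript strand of GRCh37, with the bin in the middle and 5 bases on either side, as examples of the stretches on which the calls rest. Bin A is the common peak with the most IP reads in its lowest sample, and bins B and C are the next by this measure that start more than 100 bp from those already taken. Some higher bins next to bin A of KDM5A are therefore not shown, such as chr12:393061-393080 with 66, 135 and 99 IP reads. They lie at chr12:392976-393005, chr12:392736-392765 and chr12:392316-392345 on the minus strand for KDM5A, and at chr4:140429336-140429365, chr4:140429816-140429845 and chr4:140430696-140430725 on the minus strand for SETD7. Capitals mark TGT, the core of the GU-rich elements known for CELF1.
KDM5A bin A: aatttttttttaaaggacaaaaaaaaaaat
KDM5A bin B: cagtttgagtgggtatgagatttaactcaa
KDM5A bin C: agtgacagatgcctggaatacatttaaaat
SETD7 bin A: cttatcaccaacgacccacccagaaaggcc
SETD7 bin B: aagattccaTGTggtggggaataaagaaat
SETD7 bin C: ctggtcatgcccccgatgcagctatgctct

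Among these examples TGT was present in SETD7 bin B, and the shares over all windows are given below. For comparison, the highest bin shared by the 3 samples is shown for 4 genes without a common peak, namely KDM1A at chr1:23410076-23410105 (plus strand), KMT2D at chr12:49415356-49415385 (minus strand), SETD1B at chr12:122270476-122270505 (plus strand) and SETD3 at chr14:99864516-99864545 (minus strand), all in 3′ UTRs. The window of KDM5C, taken in the same way, is not shown. It lies in the coding region at chrX:53247016-53247045 (minus strand) and held 1 TGT. The hexamer TGTTTG stood in the window of SETD3, a gene whose mRNA was lower in IP than in input in all 3 samples. Apart from bin A of each gene, these windows and the choice of TGT were taken after the values had been seen.
KDM1A: aagactgaggcaagcaagtgcTGTgaaata
KMT2D: gcaccagggacaatcctcttccccaccacc
SETD1B: atattttTGTgaattcaatactaTGTacca
SETD3: tagagtctgggcaaaaTGTttggttttttc

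Over all common peaks, TGT was held by 52.5% of 28357 windows of the same length, and the share was 7 of 14 in KDM5A and 15 of 33 in SETD7. TGTTTG or TGTGTG, both of which contain TGT, stood in 4.29% of all windows, in 0 of 14 of KDM5A and in 1 of 33 of SETD7. The windows of both genes thus held these letters about as often as common peaks in general, or less, on the transcript strand searched. Along whole 3′ UTRs, at least 1 of the 2 hexamers was found in 40 of the 50 genes, against 63.3% of 19702 genes and 80.6% of the genes with a common peak. The 3′ UTRs of the 50 genes were also longer, with a median of 2160 nt (1310 nt over all genes), and held a median of 1.35 hexamers per kb against 0.802 over all genes. KDM5A had 10 hexamers in its 3′ UTR and SETD7 had 21, and neither 1.85 nor 1.84 per kb was the highest density, as KDM4A, an eraser of H3K9 and H3K36 methylation without a common peak, had 7.82 per kb.

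The share of genes with a common peak was 4% among the 50 genes and 8.7% among all protein-coding genes (1724 genes). Among genes with at least 50 reads (IP and input together) in each sample, 2 of 33 genes of the set had a common peak, against 23.1% of all such genes. Bins passed the peak caller in 46 genes in at least 1 sample (66.2% of all genes) and in 42 genes in all 3 (10027 of 19820 genes). KDM4D, KDM4E, KDM4F and EZHIP had no listed exon bin. A bin with more than 30 IP reads was reached in 8 genes in at least 1 sample, which is 4 writers and 4 erasers, against 20.6% of all genes. A common peak was carried by 1 of 28 writers and 1 of 20 erasers. No gene of the set outside chromosome Y had a common peak in an intron. In single samples intron bins over 30 IP reads were reached, with highest bins of 46, 85 and 26 for EHMT1 and 35, 17 and 33 for KMT2E. KDM3A reached 47 in UACC-62 replicate 1 and SETD7 reached 60 in UACC-62 replicate 3. A share over all genes was not taken for introns, so that this count has no background to be read against.

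**Figure D1:**
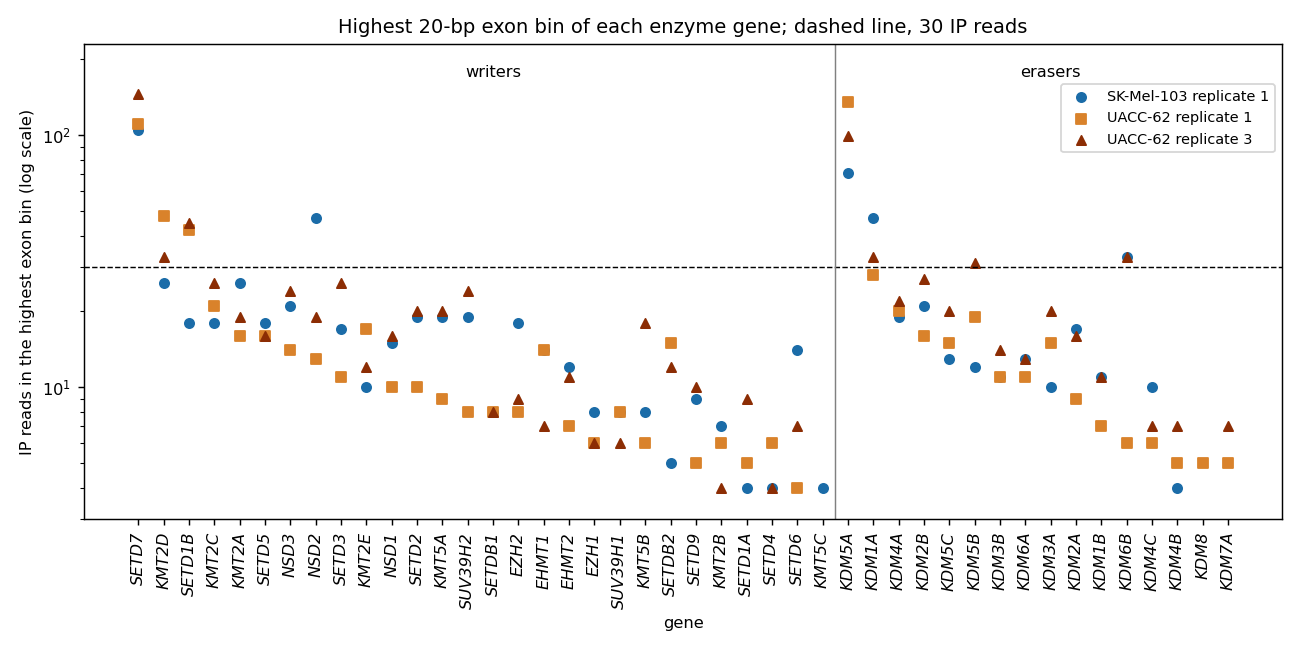
IP reads in the highest 20-bp exon bin of each writer (left) and eraser (right) on a log scale, with 1 symbol per sample and a dashed line at 30 reads. SETD7 and KDM5A lie above the line in all 3 samples, with 105, 111 and 146 reads and with 71, 136 and 99 reads. Genes without a listed bin in a sample have no symbol there, and the Y-linked KDM5D is left out.

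KDM5A removes methyl groups from tri- and dimethylated H3K4 and lies on chr12:389223-498486 (minus strand). Its 14 common peaks formed 9 runs, of which the longest joined 6 adjacent bins, and spanned chr12:391881-393840 in a 3′ UTR of 5402 nt. The highest bin, at chr12:392981-393000, held 71 IP reads in SK-Mel-103 and 136 and 79 in the UACC-62 replicates, whereas its input reads were 7, 8 and 6. IP reads were thus at least 10 times the input reads of this bin in every sample. Across the 14 peaks the median log2 IP over input, each scaled to the reads of its column, was 2.65 in SK-Mel-103 and 3.06 and 2.64 in UACC-62. Of these peaks 13 exceeded 1 on this scale in all 3 samples. The median over all 28774 common peaks was 1.12, 1.11 and 1.24, so that KDM5A stood above the typical common peak in each sample.

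IP reads of KDM5A were not spread evenly over its 3′ UTR. In the first 1000 nt the log2 ratio of IP to input was 0.64 in SK-Mel-103 and averaged 0.91 ± 0.13 in UACC-62. Between 1001 and 2000 nt it was 1.87, 3.16 and 2.25, from 900, 1539 and 1171 IP reads against 189, 154 and 151 input reads. The ratio then stayed between 2.12 and 2.47 in all samples up to 4000 nt, while the input fell to 87, 70 and 56 reads in the last of these stretches. The coding region of the same mRNA had a log2 ratio of -0.19, -0.14 and -0.10, below 0 in every sample. The 3′ UTR as a whole had 1.58, 2.15 and 1.79, and the groups of values for the 2 regions did not overlap.

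SETD7, which monomethylates H3K4 and several non-histone proteins, lies on chr4:140417095-140527853 (minus strand). It had 33 common peaks in 26 runs, spanning chr4:140427601-140431280 in the last segment of its 3′ UTR, of 5628 nt. The highest bin, at chr4:140429341-140429360, held 105 IP reads in SK-Mel-103 and 111 and 146 in UACC-62, against 65, 44 and 45 input reads. SETD7 thus had more peaks than KDM5A but a smaller excess over input, since the median log2 ratio of its peaks was 0.72, 1.21 and 1.66 and 7 of the 33 exceeded 1 in all 3 samples. Among the 1724 genes with common peaks, the median number was 6 per gene, with 33 or more in 268 genes and 14 or more in 548 genes. By stretches of 1000 nt the log2 ratio of SETD7 was lowest in the first, with 0.05, -0.04 and 0.85, and highest between 2001 and 3000 nt, with 0.77 in SK-Mel-103 and 1.78 ± 0.30 as the mean of UACC-62. Both UACC-62 replicates and SK-Mel-103 shared this order, whereas the level differed, with UACC-62 replicate 3 above the other 2 samples in all stretches.

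**Figure D2:**
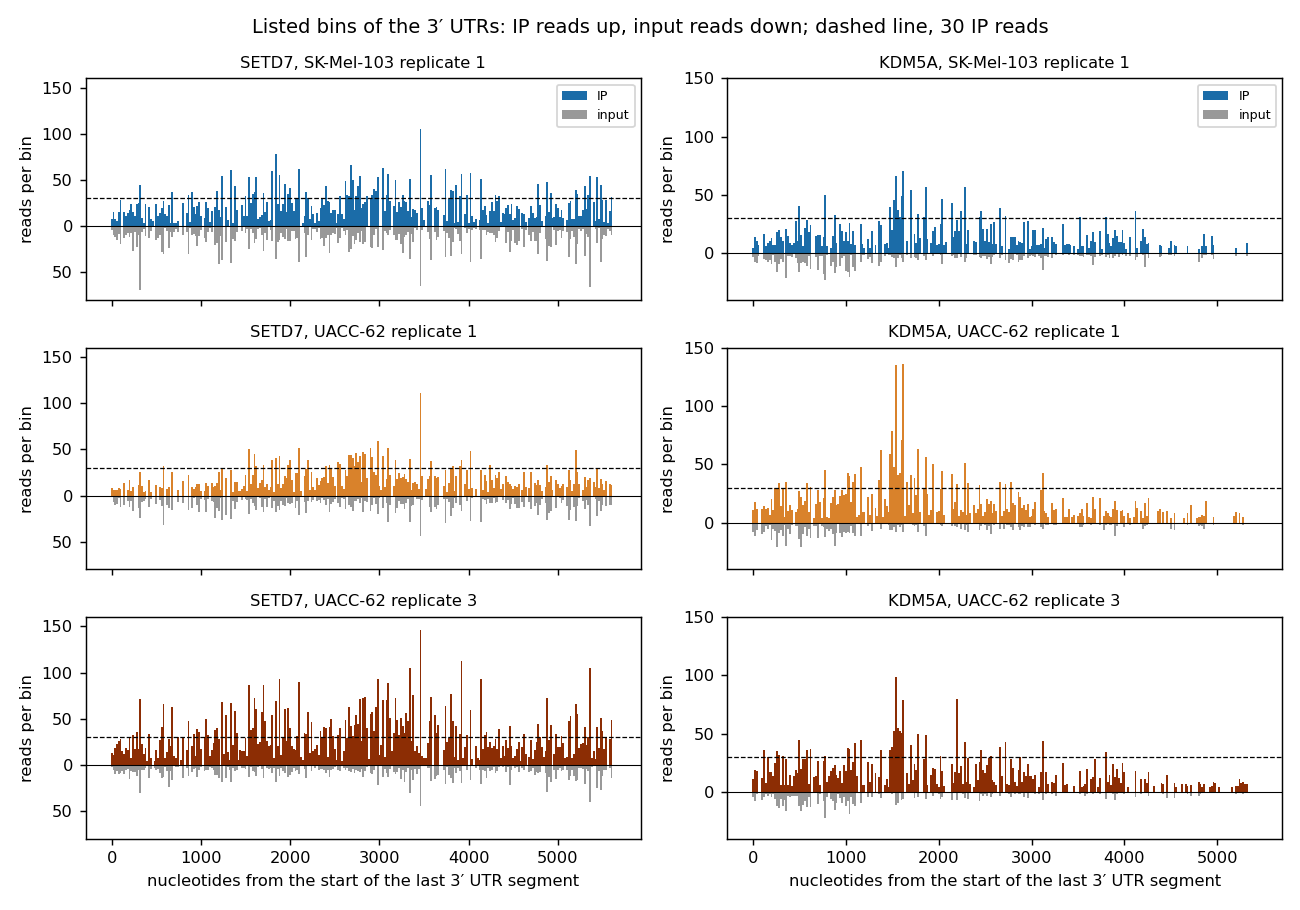
Reads in the listed bins along the last 3′ UTR segment of SETD7 (left) and KDM5A (right), in nucleotides from its start, with IP reads plotted upwards and input reads (grey) downwards, 1 row of panels per sample, and a dashed line at 30 IP reads. For KDM5A the stretch with the most IP reads (900, 1539 and 1171) lies between 1001 and 2000 nt and the stretch with the most input reads (330, 375 and 313) in the first 1000 nt, whereas IP and input reads of SETD7 cover the whole segment.

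Of the other writers, 3 reached 30 reads in some but not all samples. KMT2D, which monomethylates H3K4 at enhancers, had 26, 48 and 33 IP reads in the bin at chr12:49415361-49415380, so that SK-Mel-103 fell short. SETD1B, the catalytic subunit of a COMPASS complex for H3K4 trimethylation, had 18, 42 and 45 IP reads in the bin at chr12:122270481-122270500 with 9, 5 and 8 input reads. NSD2, a dimethylase of H3K36, had 47 IP reads in a bin at chr4:1976441-1976460 in SK-Mel-103 but 7 and 19 in UACC-62. This bin is annotated as 5′ UTR of an alternative transcript. It lies near the 3′ end of the gene, which spans chr4:1873120-1983934 on the plus strand. KMT2D and SETD1B thus passed in UACC-62 only, and NSD2 in SK-Mel-103 only, and the difference between lines could not be tested with 1 SK-Mel-103 sample.

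Of the other erasers, KDM1A, KDM5B and KDM6B had such a bin. KDM1A (also named LSD1), the flavin-dependent eraser of mono- and dimethylated H3K4, had 47, 27 and 33 IP reads at chr1:23410081-23410100, but 52, 82 and 70 input reads. Its bins were thus high in reads without exceeding the input. KDM5B, another eraser of H3K4 trimethylation, reached 31 reads in 2 bins of UACC-62 replicate 3 alone. KDM6B (also named JMJD3), an eraser of H3K27 trimethylation, had 33, 6 and 33 IP reads in the bin at chr17:7757481-7757500 with 3, 0 and 1 input reads. KDM1A and KDM6B thus missed a common peak by UACC-62 replicate 1 alone.

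The log2 IP over input of a whole mRNA was taken from all its listed exon bins, with 1 read added to either side, in the 33 genes with at least 50 IP and input reads together in each sample. Of all protein-coding genes, 37.6% reached this number. The 17 genes below it were 7 writers (KMT2B, SETD1A, SETDB2, EZH1, KMT5C, SETD4 and SETD6), 9 erasers (KDM4B, KDM4C, KDM4D, KDM4E, KDM4F, KDM5D, KDM6B, KDM7A and KDM8) and EZHIP. Intervals given below are exact 95% binomial (Clopper-Pearson) intervals. They cover counting error only, because PCR reads without molecular identifiers are not independent molecules. A low input count in these bulk lysates may mean fewer transcripts per cell or fewer cells that express the gene, which cannot be told apart.

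Above 0 in all 3 samples were 9 of the 33 genes, against 25.5% of the 7461 genes with enough reads. They were the writers SETD1B, KMT2D, KMT2A, SETD7, KMT5B, SUV39H1 and NSD3 and the erasers KDM5A and KDM4A. Of these, KDM4A, NSD3 and SUV39H1 (given below) had intervals that held 0 in at least 1 sample. For KDM4A these were SK-Mel-103 (-0.19 to 0.22) and UACC-62 replicate 1 (-0.08 to 0.34). For NSD3 it was UACC-62 replicate 1 (-0.07 to 0.24). Below 0 in all 3 samples were 13 genes, against a background of 54.9%, and the remaining 11 had values of both signs. Centring each sample on the median of all genes, or leaving out the division by column totals, raises every value, so that only the genes below 0 or of mixed sign can change side. Of the 13 below 0, 7 stayed below under centring, which raised the values by 0.27 in SK-Mel-103 and by 0.71 and 0.49 in UACC-62, and 6 stayed below without division by totals. KDM1A, KDM3B, EZH2, KMT5A and SETD3 were below 0 under all of these scalings.

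SETD1B had the highest ratio of the set, from 212, 587 and 409 reads in the IP and 63, 90 and 58 in the input of SK-Mel-103, UACC-62 replicate 1 and UACC-62 replicate 3. Its log2 ratio was 1.36 (0.96 to 1.81) in SK-Mel-103 and 2.53 (2.23 to 2.88) and 2.10 (1.72 to 2.54) in UACC-62, and the intervals of the 2 lines did not overlap for UACC-62 replicate 1. SETD1B alone exceeded 1 in all 3 samples, against 8.93% of all genes. KDM5A followed with 4135, 4801 and 5096 IP reads and 1701, 1691 and 1580 input reads, a log2 ratio of 0.91 in SK-Mel-103 and averaged 1.17 ± 0.25 in UACC-62 (SD, n = 2). KDM5A thus combined a high ratio with 1580 to 1701 input reads, whereas the ratio of SETD1B rested on 58 to 90.
KMT2D was the next of the H3K4 writers, with 1175, 1791 and 1082 IP reads and 600, 627 and 289 input reads. Its log2 ratio was 0.59 (0.45 to 0.74) in SK-Mel-103 and averaged 1.28 ± 0.11 in UACC-62. KMT2A, the founding member of the MLL family, had 0.47, 0.58 and 0.69, with intervals that overlapped in all 3 samples. SETD7 had 0.45, 0.73 and 1.36 with intervals that did not overlap, so that its UACC-62 replicates differed from each other by more than UACC-62 replicate 1 differed from SK-Mel-103.

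KDM1A had the lowest ratio of the set. Its 790, 425 and 501 IP reads stood against 1472, 1678 and 1297 input reads, giving -1.27 (-1.40 to -1.15) in SK-Mel-103 and averaged -2.10 ± 0.05 in UACC-62. SETD3 had 302, 218 and 541 IP reads and 543, 554 and 759 input reads, which gave -1.22, -1.50 and -1.19. Both genes were below -1 in all 3 samples, as were 17.7% of all genes. By its lowest sample KDM5C, an X-linked eraser of H3K4 methylation, came next with -1.16 in UACC-62 replicate 3. KMT5A, the monomethylase of H4K20, had -0.92, -1.15 and -0.78. KMT5A, KMT2C, the KDM4 genes, KDM5C with KDM5D, and KDM6A with its Y-linked relative UTY have close copies elsewhere in the genome, and because reads with up to 20 alignments had been kept, their values are uncertain.

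**Figure D3:**
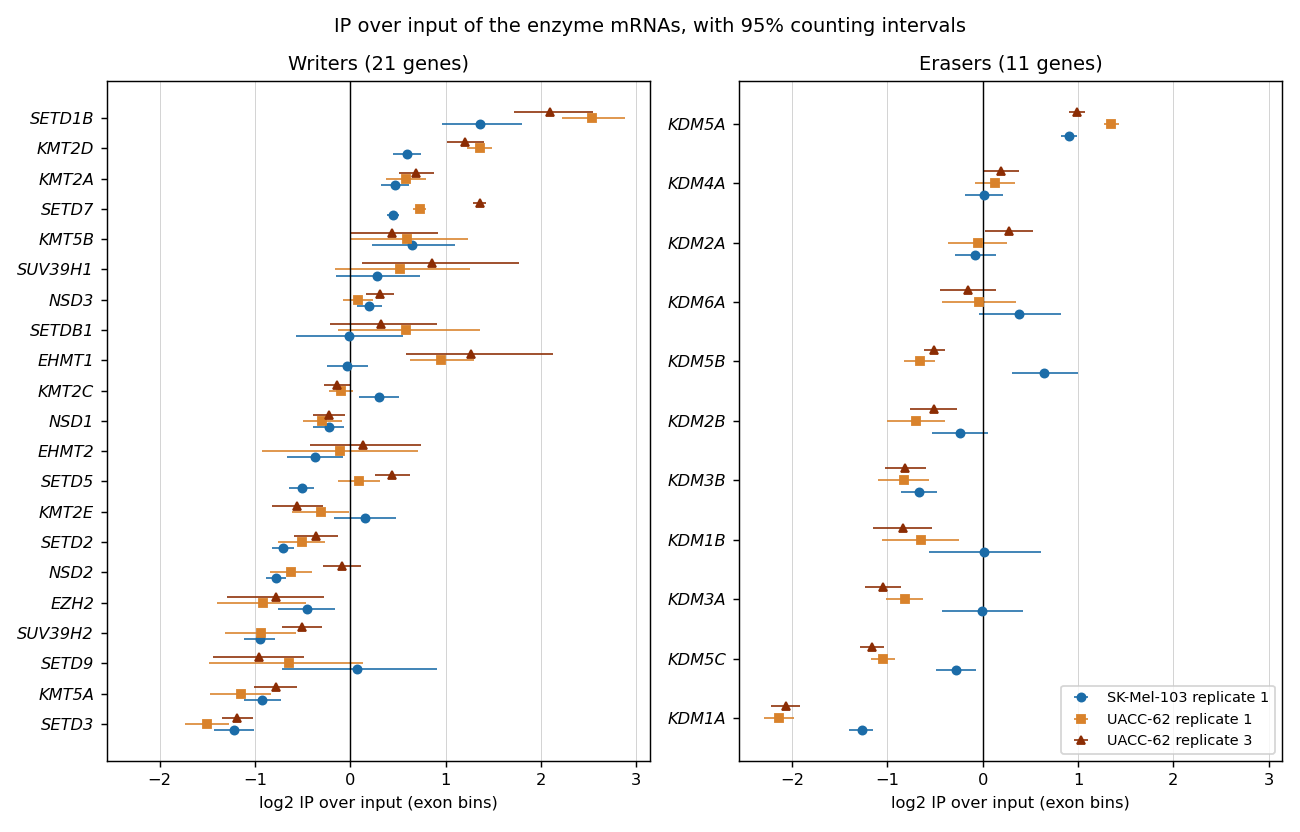
Log2 IP over input of the 21 writers (left) and 11 erasers (right) with enough reads, with 1 symbol per sample and horizontal bars for the 95% counting interval. SETD1B lies highest and SETD3 lowest among the writers, KDM5A highest and KDM1A lowest among the erasers. KDM5B lies above 0 in SK-Mel-103, at 0.64, and below 0 in UACC-62, at -0.66 and -0.51.

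By substrate, the H3K4 writers stood highest. Of their 8 genes 6 had enough reads, 4 of these (SETD1B, KMT2D, KMT2A and SETD7) were above 0 in all 3 samples and none was below, against 25.5% and 54.9% of all genes, with a median of 0.46 in SK-Mel-103 and 0.65 and 0.95 in UACC-62. The count above 0 was 5 of 6 without division by totals and with centring, where 31.5% of all genes and 2987 of 7461 genes were above 0. KMT2C and KMT2E were of mixed sign, both above 0 in SK-Mel-103 and below 0 in UACC-62. KMT2E, whose SET domain is known to lack methyltransferase activity, had 0.15, -0.31 and -0.55.

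The H3K9 writers with enough reads numbered 5, of which SUV39H1 was above 0 in all samples, with 0.28, 0.52 and 0.86, and SUV39H2 below 0, with -0.95, -0.93 and -0.51. The point values of these 2 paralogs, which trimethylate H3K9 in pericentric heterochromatin, thus lay on opposite sides of 0. The 95% interval of SUV39H1 held 0 in SK-Mel-103 (-0.15 to 0.73) and in UACC-62 replicate 1 (-0.16 to 1.26). SUV39H2 left the lower side in UACC-62 replicate 3 when reads were not divided by totals. EHMT1 was near 0 in SK-Mel-103, at -0.03, and at 0.95 and 1.27 in UACC-62, while its partner EHMT2 had -0.37, -0.11 and 0.13. The introns of EHMT1 held 3547, 3780 and 659 IP reads, against 414, 241 and 77 in its exon bins. The part of unspliced RNA in its exon ratio was not tested. SETDB1 had -0.02, 0.58 and 0.32, with 95% intervals that held 0 in all 3 samples.
Of the H3K27 writers, EZH2, the catalytic subunit of Polycomb repressive complex 2 (PRC2), had 187, 64 and 66 IP reads and a log2 ratio of -0.46, -0.92 and -0.78. EZH1 had at most 32 IP reads in any sample and was not compared.
Among the H3K36 writers, SETD2, the trimethylase, had -0.70, -0.51 and -0.36, NSD1 had -0.23, -0.29 and -0.22, and NSD2 had -0.78, -0.62 and -0.09. Their paralog NSD3 had 0.20, 0.08 and 0.31. The 3 genes below 0 in this group were no longer below 0 in all samples under either of the other scalings, so that their side of 0 depends on the scaling.
Of the H4K20 writers, KMT5B, which adds the second methyl group and the third, had 0.65, 0.59 and 0.44, opposite in sign to KMT5A.

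The H3K4 erasers were the most spread group, with KDM5A above 0, KDM1A and KDM5C below 0, and KDM1B and KDM5B of mixed sign. KDM5C had -0.28, -1.05 and -1.16, and fell on the other side of 0 in SK-Mel-103 when reads were not divided by totals. The paralogs KDM5A, KDM5B and KDM5C, which erase the same mark, thus ranged from 1.35 down to -1.05 within UACC-62 replicate 1, whereas in SK-Mel-103 they ranged from 0.91 to -0.28. SK-Mel-103 lay on one side of 0 and both UACC-62 replicates on the other in 9 of the 33 genes, against 10.2% of 7456 genes outside chromosome Y. KDM5B was the only one of these with all 3 intervals excluding 0, on the scaling used here, but with centring it had 0.91, 0.06 and -0.01 and without division by totals 1.01, -0.50 and 0.19, so that the opposite sign of both UACC-62 replicates was lost. Its 215, 536 and 1470 IP reads stood against 106, 759 and 1288 input reads, and the log2 ratio was 0.64 (lower bound 0.30) in SK-Mel-103 and averaged -0.58 ± 0.11 in UACC-62. The input of KDM5B also differed between the lines, with 7.7 reads per kb in SK-Mel-103 and 55.4 and 94.0 in UACC-62, and the part of this in the ratio was not tested.
Of the H3K9 erasers, KDM3A and KDM3B, which act on mono- and dimethylated H3K9, were below 0, with -0.01, -0.81 and -1.05 for KDM3A and -0.67, -0.82 and -0.81 for KDM3B. Under both other scalings KDM3A left this side of 0 in SK-Mel-103. KDM4A had 0.01, 0.13 and 0.19. Of the H3K36 erasers, KDM2A was of mixed sign, with -0.08, -0.05 and 0.27, and KDM2B had -0.24, -0.70 and -0.51, which under either other scaling was above 0 in at least 1 sample. KDM6A, the X-linked eraser of H3K27 methylation, had 0.38, -0.04 and -0.16.

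Writers and erasers were then compared by their medians. In SK-Mel-103 the median log2 ratio was -0.02 for 21 writers and -0.01 for 11 erasers. In UACC-62 it was -0.10 and 0.13 for writers, and -0.66 and -0.51 for erasers. Erasers minus writers was therefore 0.01 in SK-Mel-103 and averaged -0.60 ± 0.06 in UACC-62 (SD, n = 2). On all listed exon bins the erasers thus lay below the writers in both UACC-62 replicates, and level with them in SK-Mel-103. The input of the groups differed in the same samples. Median input reads per kb of exon were 41.0 for writers and 42.3 for erasers in SK-Mel-103. In UACC-62 replicates 1 and 3 they were 29.4 and 24.2 for writers, and 55.4 and 82.2 for erasers. The part of this in the difference between writers and erasers was not tested. The median of all genes was -0.27 in SK-Mel-103 and -0.71 and -0.49 in UACC-62, and on this reference the erasers of UACC-62 lay at the level of all genes, at 0.02, while the writers lay at 0.62. No test over samples was possible with a single SK-Mel-103 sample. Scaling adds the same value to every gene of a sample and cannot move this difference. In the bins listed in all 3 samples it was 0.56 for SK-Mel-103 and -0.26 ± 0.39 for UACC-62, and in 3′ UTR bins -0.28 for SK-Mel-103 and -0.95 ± 0.11 for UACC-62, so that the contrast between the lines depended on the bins used.

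The ratio also moved with the amount of input. Across the 33 genes, the log2 of input reads per kb of exon and the log2 ratio had a Pearson r of -0.60 in SK-Mel-103 and -0.45 and -0.56 in UACC-62, and over 7461 genes of -0.54, -0.47 and -0.49. The input enters both measures and genes are not independent replicates, so that these are descriptions only. KDM1A had 242, 276 and 213 input reads per kb and the lowest ratio, and SETD1B had 7.4, 10.5 and 6.8 and the highest. KDM5A had 154, 153 and 143 input reads per kb and SETD7 had 253, 179 and 158, with ratios above 0. The part of input abundance in the ratios was not tested.

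Within an mRNA, the ratio in the 3′ UTR was set against that in the coding region, so that each gene served as its own reference. Of 22 genes with enough reads in both, 16 were higher in the 3′ UTR in all 3 samples, namely 11 of 13 writers and 5 of 9 erasers, against 56.8% of 4540 genes. The median difference was 0.47 in SK-Mel-103 and 0.68 and 0.49 in UACC-62 for writers, 0.21, 0.29 and 0.48 for erasers, and 0.41, 0.39 and 0.33 for all genes. The writers were thus slightly above all genes in each sample, and the erasers below them in SK-Mel-103 and UACC-62 replicate 1.
A difference above 1 in all 3 samples was found for KDM5A, with 1.78, 2.28 and 1.89, and for NSD1, a dimethylase of H3K36, with 1.11, 1.54 and 1.55, against a background of 11.3%. NSD1 was below 0 as a whole mRNA, but its 3′ UTR alone had 0.70, 1.04 and 1.07, from 148, 79 and 179 IP reads. NSD2 had a difference of 0.82, 0.99 and 1.14, but its 3′ UTR alone had -0.31, 0.05 and 0.52. SETD7 had a difference of 0.81, 1.38 and 1.05. The opposite order, with the coding region higher in all 3 samples, was seen in 2 of the 22 genes, against 602 of 4540 genes. These were EZH2, with -0.18, -0.78 and -1.27, and KDM3B, with -0.26, -0.59 and -0.77. The 3′ UTR of EZH2 held 51, 27 and 24 IP reads, and its difference rests on these few counts.

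**Figure D4:**
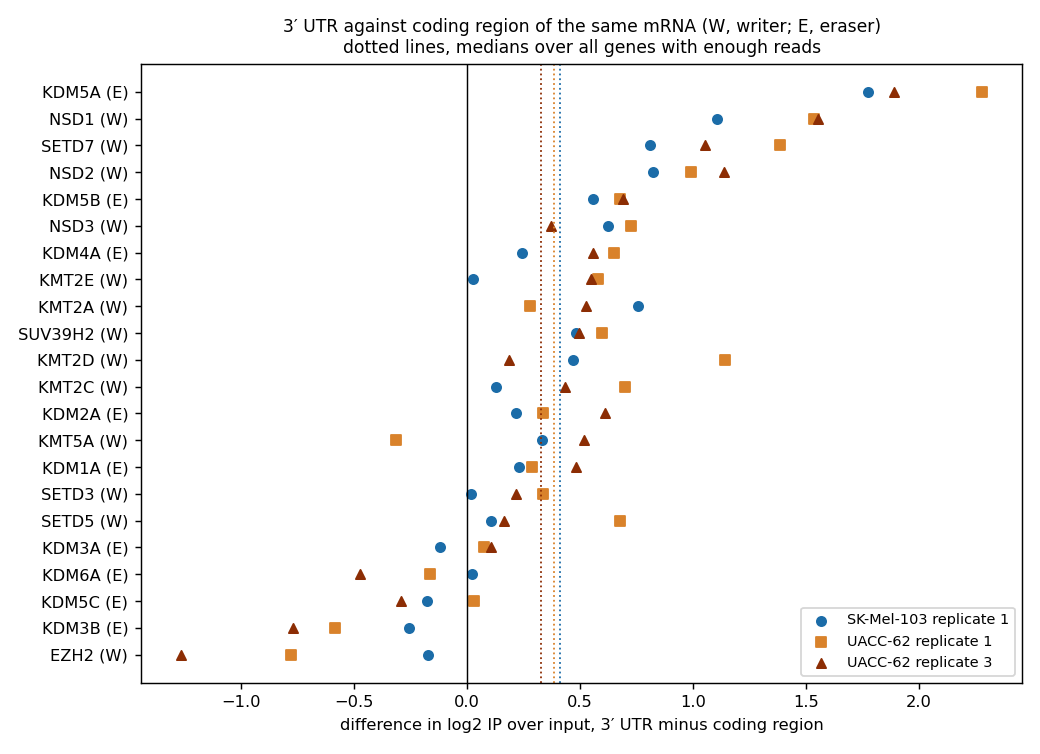
Difference in log2 IP over input between the 3′ UTR and the coding region of the same mRNA for 22 genes, with 1 symbol per sample and dotted lines at the median of all genes in each sample (0.41, 0.39 and 0.33). KDM5A and NSD1 lie above 1 in all samples, and EZH2 and KDM3B below 0 in all samples.

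Partner genes of these enzymes were described for comparison, from 4 lists that were chosen with earlier results of these data known. Common peaks were found in 2 of 11 PRC2 partners (RBBP4 with 48 and RBBP7 with 3) and in 2 of 13 COMPASS and KMT2 partners (WDR82 with 75 and HCFC1 with 29), against 8.7% of all genes. Among genes with enough reads these were 2 of 9 and 2 of 11, against 23.1% of all such genes. RBBP4, a histone chaperone subunit of PRC2, had log2 ratios of 1.15, 1.79 and 1.58, whereas its paralog RBBP7 had -1.29, -2.11 and -1.87. WDR82, the subunit of SETD1 complexes that binds RNA polymerase II, had 1.69, 1.58 and 1.78, and HCFC1, which joins the same complexes, had 1.48, 2.61 and 2.44. Other subunits lay on the opposite side, such as ASH2L with -0.62, -1.72 and -1.64 and DPY30 with -1.34, -1.90 and -1.86, so that the partners of SETD1B had no common direction. Of the genes with enough reads, 4 of 9 PRC2 partners and 3 of 11 COMPASS and KMT2 partners were above 0 in all 3 samples (25.5% of all genes), and 4 and 6 of them were below 0 (54.9% of all genes). Common peaks were also found in 3 of 19 further lysine methylation enzymes (8.7% of all genes), namely the H3K36 methyltransferase ASH1L (9), MECOM (8) and the H3K9 eraser PHF8 (2). Among genes with enough reads these were 3 of 12, against 23.1% of all such genes.

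Of the readers and corepressor partners with enough reads, 9 of 13 were above 0 in all 3 samples (25.5% of all such genes). Common peaks were found in 9 of the 20 genes of this list (8.7% of all genes), or 9 of the 13 with enough reads (23.1% of all such genes). They comprised CBX3 (62 peaks), CBX5 (42) and CBX1 (9), which encode the heterochromatin proteins that bind methylated H3K9, ATF7IP (51), a partner of SETDB1, and RCOR1 (32), the CoREST subunit that ties KDM1A to nucleosomes. RCOR1 had log2 ratios of 2.30, 2.48 and 2.50, opposite to those of KDM1A itself. CBX3 had 1.98, 2.42 and 1.92, and ATF7IP had 1.28, 1.77 and 1.30. TRIM28 (5 peaks), HDAC1 and HDAC2 (1 peak each) had ratios from -1.81 to -0.97 over the 3 samples, so that in these genes a peak by read number stood beside fewer IP than input reads. CBX6 had 2 peaks and ratios of 0.87, 1.08 and 1.15.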

How the data were processed

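RIP-Seq of CELF1 was analysed from 3 IP samples, with groups and replicate numbers taken from the labels. Per the labels and the methods, the authors used TopHat with the first-strand setting on GRCh37, keeping up to 20 alignments per read, and ran Piranha in 20-bp bins with the input as covariate. TopHat2 2.0.4, Bowtie 0.12.7 and SAMtools 0.1.16 are named in the submitters' processing notes. The deposited counts are unnormalized IP reads, 1 whole number for each bin. The p-value deposited by the authors is below 0.05 in all bins, and while the methods name a false discovery rate of 0.05, the lists do not say whether this column is the corrected value. The ratio deposited by the authors in the last column is the covariate. Its values were whole multiples of a smallest step (100% within 0.05 of a step), which was taken as 1 input read. Bins without input carry 0.01, equal to 171, 388 and 326 input reads on this scale, and made up 9.69%, 15.9% and 29.2% of the lists. Their input was set to 0.

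Bins were assigned by their centre to exons of protein-coding transcripts (GENCODE version 44 lifted to GRCh37) in the order 3′ UTR, coding region, 5′ UTR, with the transcript strand as the reverse of the listed one. Bins of the 50 genes numbered 2669, 2262 and 2860 on that strand and 40, 38 and 44 on the other. The mitochondrial genome was left out. Log2 IP over input used reads in listed bins divided by the column total, with a pseudocount of 1 read, and is conditional on bins having passed. A test of IP against input across genes was not run, since passing used the same input. The genes described in full were those with a common peak, the 3 highest and the 3 lowest by the lowest of 3 samples, and their paralogs. Members and lists were chosen with earlier results of these data known, and EZHIP was set apart after the annotation had been read. Alternatives covered read filter, p-value threshold, scaling, bin sets, strand and leaving out each UACC-62 replicate. On simulated data, sums and peak calls were right for 200 of 200 genes. The tools were pandas 2.3.3, numpy 2.4.6, matplotlib 3.10.9 and scipy 1.17.1 in Python 3.11.15.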

Additional observations from a re-analysis of the deposited data

Results flagged for a closer look

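In 9 of the 33 genes with enough reads, the SK-Mel-103 sample lay on one side of a log2 IP over input of 0 and both UACC-62 samples on the other, against 10.2% of 7456 genes outside chromosome Y. The count depends on the scaling, with 5 genes after centring on the median of all genes (1 of them, SETD5, among the 9) and 5 without division by totals (3 of them among the 9, SETD5 included). These differences were not tested, since SK-Mel-103 had a single sample. As UACC-62 mean minus SK-Mel-103, the difference was -1.22 for KDM5B, -0.87 for SETD9, -0.75 for KDM1B, -0.58 for KMT2E, -0.48 for KDM6A and -0.42 for KMT2C. The ratio was higher in UACC-62 for EHMT1 by 1.14, for SETD5 by 0.77 and for SETDB1 by 0.47. Most listed IP reads of EHMT1 lay in introns, as given above. KDM5B alone had counting intervals that excluded 0 in all 3 samples on the scaling used, and its UACC-62 values were 0.06 and -0.01 after centring and -0.50 and 0.19 without division by totals. In SK-Mel-103, KDM1B (0.01), EHMT1 (-0.03) and SETDB1 (-0.02) lay within 0.03 of 0, so that their change of sign says little beyond the size of the difference.

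On the strand opposite to KDM6B, outside the main measurement, 1 exon bin passed in all 3 IP samples. It is the bin at chr17:7757481-7757500 that also gave the highest sense count of KDM6B. The opposite strand held 63 IP reads in SK-Mel-103 and 86 and 221 in UACC-62, against 33, 6 and 33 on the sense strand, and its input reads were 0, 1 and 4. The log2 IP over input of this bin was 5.63, 5.29 and 4.77. The sequence is given because reads of both strands stand on it, on the plus strand of GRCh37 at chr17:7757476-7757505, with no TGT to capitalise.
KDM6B: cccctccagggaccgcccgtcgccgggctc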

How the results depend on the processing

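The number of genes with a common peak was 2 in the analysis reported. Without a filter on IP reads it was 28 (16 writers and 12 erasers, 7923 of all 19820 genes), with more than 100 IP reads 1 (0 erasers, 2.67% of all genes), and with the listed strand taken as the transcript strand 1 (0 writers, 0.474% of all genes). Leaving out a UACC-62 replicate gave 2 to 4 genes, of which 1 were writers in both cases and 1 to 3 were erasers. Without UACC-62 replicate 1, KDM1A and KDM6B joined, at a background of 11.1%. Genes above 0 in all 3 samples numbered 14 of 33 without division by totals (31.5% of all genes), 15 of 33 with centring on the median of all genes (2987 of 7461 genes), 2 of 2 with only bins over 30 IP reads (45.7%), 5 of 24 with only bins listed in all 3 samples (23.6%), 17 of 42 with no minimum of reads (31.2%) and 1 of 2 on the listed strand (30.2%), against 9 of 33 reported (25.5%), and 9 without either UACC-62 replicate. A p-value under 0.01, peaks anywhere in the gene and bins of a single gene left 2 genes with a common peak.

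The UACC-62 median log2 ratio of writers was 0.02, and 0.44 without division by totals, 0.62 with centring, 1.38 with bins over 30 reads, -0.55 with bins listed in all 3 samples, 0.40 in 3′ UTRs, -0.16 with only bins that have an input read, 0.26 with no minimum of reads and -1.49 on the listed strand (-0.10 to 0.13 without a replicate). For erasers it was -0.59, and in the same order -0.16, 0.0166, 2.34 and -0.81, then -0.34 with no minimum and 5.03 on the listed strand (-0.66 to -0.51 without a replicate). Erasers minus writers was -0.60, and 0.96 with bins over 30 reads, -0.26 with bins listed in all 3 samples, -0.95 in 3′ UTRs, -0.48 with an input read and 6.52 on the listed strand (-0.65 to -0.56 without a replicate). With bins over 30 reads and on the listed strand, 1 writer and 1 eraser were left, which sets those differences. The cause of the other shifts was not tested. The median of writers lay within 0.02 of 0.

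No paired analysis was possible because no test over samples was run, with a single SK-Mel-103 sample. Each ratio already sets an IP against the input of its own number. Depth limits SETD1B, with at most 90 input reads, and the 17 genes under 50 reads.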
